A study of Rattus norvegicus with 18 samples.

Results

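DNA transposon regions were the differentially methylated regions (DMRs) whose deposited annotation names a repeat of the class DNA, and they were read by element family across 4 comparisons of fetal rat germ cells. They make up 229 of the 61661 regions that the authors' 4 DMR tables list, and 218 of them have distinct coordinates. The annotation chose them among regions that the authors had listed for their measured difference. The repeats of these regions bear 83 element names in 13 families, and 43 of the names occur once.

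DNA transposons move by a cut-and-paste mechanism in which a transposase recognises the inverted repeats at the ends of the element. Most copies in rodents are old and immobile remnants, many of them short non-autonomous elements such as the MER and URR1 repeats, which borrowed the transposase of a longer relative. The superfamily hAT, which includes the Charlie and Tip100 elements, and the superfamily TcMar, which includes the Tigger elements, account for most of them. Methylation of CpG sites silences transposons in somatic tissues, and fetal germ cells erase most methylation before new patterns are laid down in a sex-specific way.

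The germ cells, called gonocytes in the labels, were sorted from Sprague-Dawley fetuses that carry a germ-cell-specific GFP transgene (GCS-EGFP), and a rat capture panel was applied to bisulfite libraries of their DNA. From gestational day (GD) 0, the day sperm were found, 5 dams ate a high-fat diet (HFD, 45% of energy from fat) and 5 a control diet (18%). The 18 samples were HFD males (4) and HFD females (3) at GD16, control males at GD18 (4), control males at GD16 (4) and control females at GD16 (3). All groups carry the transgene, whose promoter the labels do not name. They also do not say which samples came from separate litters. The design text also lists 4 re-analysed samples of another project and ties them to no group. The tables hold no expression values, so the identity of the sorted cells could not be checked against markers.

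Each level printed from here on is a mean CpG methylation that the authors list per region and group, in percent. Whether samples or pooled reads were averaged for it could not be checked. Neither the sequencing depth nor the variation among animals behind a level is known, so no interval or replicate test goes with it. A region is called higher or lower as the authors' table lists it, with a false discovery rate (FDR) adjusted over regions already selected. The unit of the test behind that FDR is not stated. The FDR values printed below are therefore not read as a measure of variation among animals. All members have at least 5 CpGs and differ by at least 10 percentage points.

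The largest share of the regions came from the sex comparison, with 168 DNA transposon regions among 48127 listed (0.349%, exact 95% interval 0.298 to 0.406%). HFD males against control males gave 47 of 10084 (0.466%, 0.343 to 0.619%), HFD females against control females 9 of 1832 (0.491%, 0.225 to 0.931%), and GD18 control males against GD16 control females 5 of 1618 (0.309%, 0.100 to 0.720%). These Clopper-Pearson intervals overlap, cover counting error over regions only and treat neighbouring regions as independent. Of the regions that lie in any repeat, DNA transposons were 9.44%, 9.44%, 9.09% and 6.85% in the sex, male diet, female diet and GD18 tables. Elements of the hAT superfamily made up 172 of the 229 regions (75.1%) and TcMar elements 41 (17.9%), while 15 (6.55%) carry no family and 1 is a PIF-Harbinger element. The family hAT-Charlie alone held 144 (62.9%), and TcMar-Tigger held 31.

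**Figure D1:**
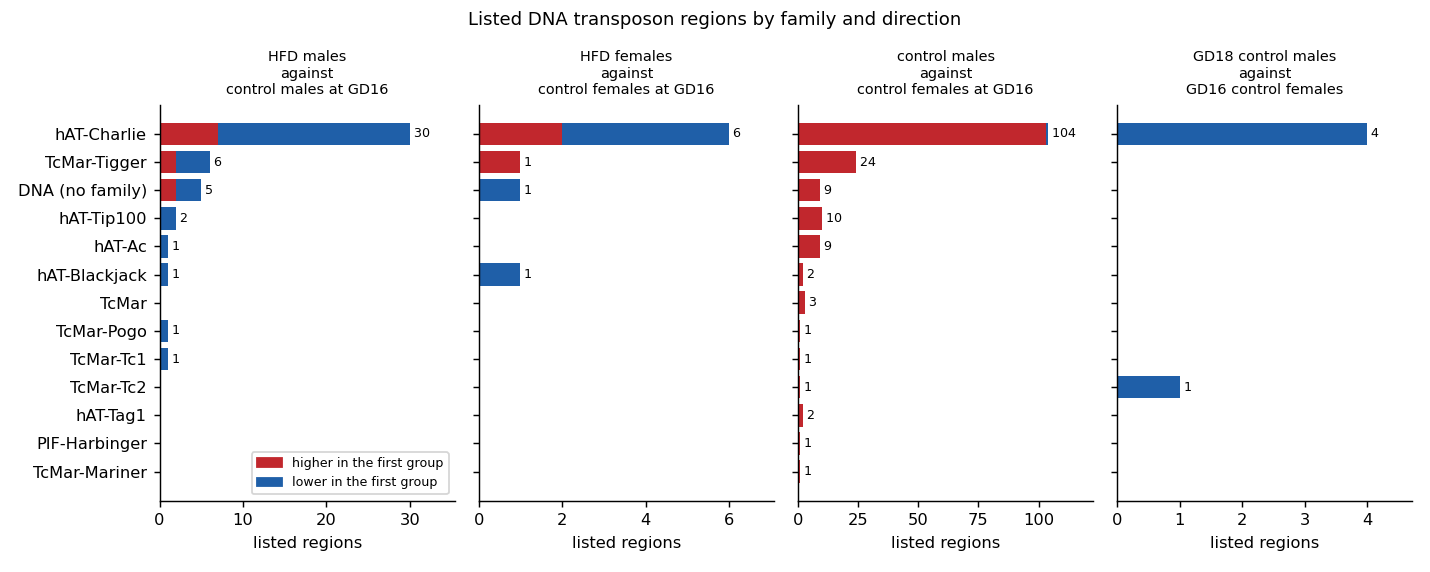
Listed DNA transposon regions by element family (vertical axis) and number of regions (horizontal axis, a different scale in each panel) in the 4 comparisons, with regions higher in the first-named group in red and lower in blue. The family hAT-Charlie is the longest bar in each panel, with 30, 6, 104 and 4 regions.

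The male diet comparison asks whether maternal HFD alters methylation in male germ cells at GD16. DNA transposon regions were lower in HFD males in 36 cases and higher in 11. The share that fell was 76.6% (exact interval 62.0 to 87.7%), beside 74.0% of all regions in that table. Of the regions over which the FDR was adjusted, 96.8% were listed, so standing in the list separates few of the regions carried into that last step. Among the 36, the median level was 10.2% in HFD males and 25.35% in control males, with HFD male levels of 1.0 to 16.2% and control male levels of 13.2 to 43.3%. Among the 11, the median was 26.8% in HFD males (20.5 to 80.0%) and 11.7% in control males (7.8 to 44.3%). The medians over all listed regions were close to these, at 10.3% in HFD males and 25.2% in control males for the falls, and at 27.7% in HFD males and 10.5% in control males for the rises.

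The region with the largest fall was an Arthur2 element of the hAT-Tip100 family on chromosome 6 (1088920 to 1089029, intergenic). Its 6 CpGs were methylated to 1.0% in HFD males and 36.1% in control males. An intergenic MER5A1 element on chromosome 15 (23675084 to 23675714, 14 CpGs) had 9.5% in HFD males and 43.3% in control males, with an FDR of 6.65e-10 in the authors' deposited table. A MER58B copy in an intron of Bora (chromosome 15, 83443515 to 83443989), the gene of an activator of Aurora A kinase at mitosis, had 11.3% in HFD males and 38.3% in control males. The intergenic X30_DNA element on chromosome 9 (43635163 to 43635317) had 12.6% in HFD males and 35.0% in control males. A Charlie29b element on chromosome 18 (16397029 to 16397200, intergenic) had 12.1% in HFD males and 34.1% in control males. These 5 regions were picked for the largest falls, which favours such levels. All had 12.6% or less in HFD males and above 34% in control males.

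Of the rises, 1 stands apart in level. A Charlie16 element on chromosome 6 (106209355 to 106209472, intergenic, 6 CpGs) was methylated to 80.0% in HFD males and 44.3% in control males, with an FDR of 6.40e-13 in the authors' deposited table. The next was an intergenic URR1A element on chromosome 6 (47854164 to 47854526), at 33.3% in HFD males and 11.7% in control males. In an intron of Asic2, an acid-sensing ion channel gene, an X30_DNA element (chromosome 10, 68262681 to 68262792) had 30.5% in HFD males and 9.3% in control males. A MER2 element of the Tigger family in Pik3r1, which encodes the regulatory subunit of phosphoinositide 3-kinase in insulin signalling, had 29.8% in HFD males and 14.9% in control males (chromosome 2, 31748978 to 31749569). In Aldh4a1, a gene of mitochondrial proline breakdown, a URR1A element had 26.8% in HFD males and 12.4% in control males (chromosome 5, 158097124 to 158097535).

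**Figure D2:**
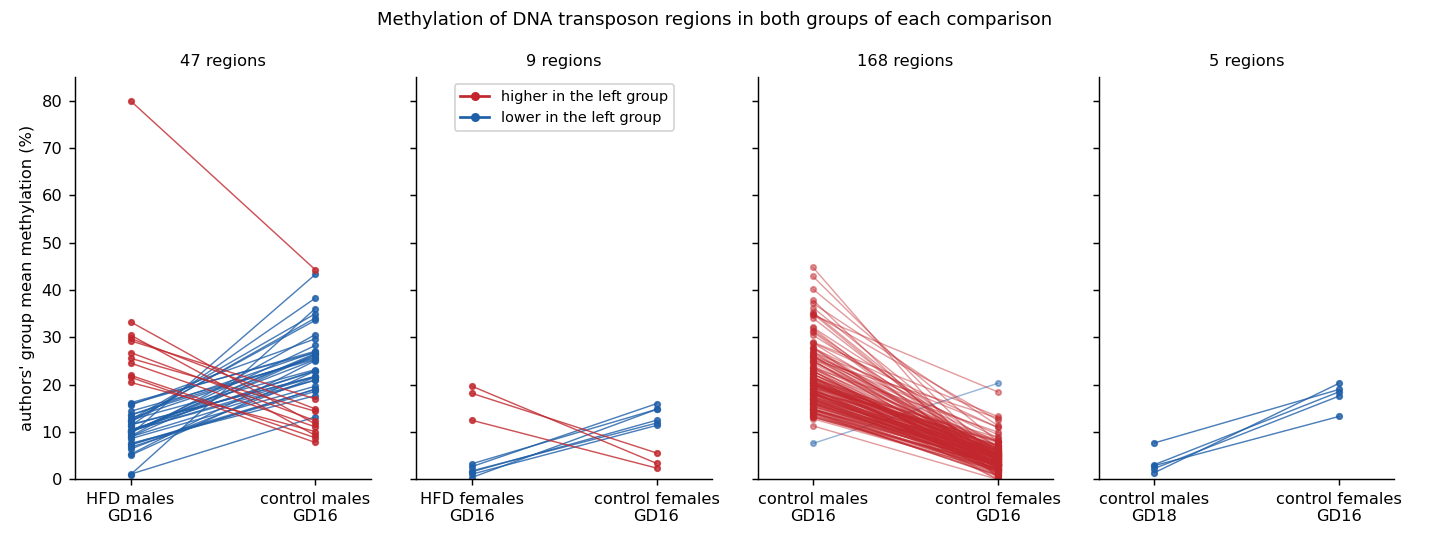
The authors' group mean methylation (percent, vertical axis) of each DNA transposon region in both groups of the 4 comparisons, with a line joining the 2 means of a region, red where the left group is higher and blue where it is lower. In HFD males 1 region reaches 80.0%, while in the sex comparison 167 of 168 regions are higher in control males than in control females.

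Introns held 25 of the 47 male diet regions (53.2%), beside 51.6% of SINE regions, 49.8% of all repeat regions and 34.7% of all listed regions. The repeat regions were all intronic or intergenic. All listed regions were 50.0% intergenic and held other locations such as exons as well, so the 34.7% has a wider base. Of the 25, 21 fell (84%, exact interval 63.9 to 95.5%), beside 74.4% of all listed intronic regions. Among the regions with the most CpGs were the MER5A1 element on chromosome 15 named above (14 CpGs, as in 2 other falls) and a MER33 element in Abca4, a retinal lipid transporter gene (chromosome 2, 225767625 to 225768874, 17 CpGs). The Abca4 region had 9.0% in HFD males and 21.0% in control males. The genes named from here on in this table were picked after their values were seen. In Gabbr2, a subunit of the metabotropic GABA receptor, a MER113A element had 12.3% in HFD males and 33.6% in control males. In Grin2b, an NMDA receptor subunit, a MER5B element had 5.1% in HFD males and 22.9% in control males. In Mapt, which encodes tau, a MER5A element had 1.1% in HFD males and 13.2% in control males, the second-lowest HFD male level of the 47.

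Outside hAT-Charlie, the intronic falls covered 5 families and the class without a family. Tigger elements fell in Gnaz, which encodes a G protein alpha subunit (X26_DNA, 5.3% in HFD males and 25.1% in control males), in Stc2, a stanniocalcin gene (MER2, 9.9% in HFD males and 28.3% in control males), in Ltbp1, which encodes a latent TGF-beta binding protein (Tigger16b, 9.0% in HFD males and 26.3% in control males), and in Vac14. A TcMar-Pogo element, MER132, had 12.9% in HFD males and 25.9% in control males within C8b, a complement component gene. The only TcMar-Tc1 element of this table, X33a_DNA in the ABC transporter gene Abcc4, had 14.4% in HFD males and 25.4% in control males. A hAT-Blackjack element in Slc22a2, an organic cation transporter gene, had 6.8% in HFD males and 19.1% in control males, and the hAT-Ac element OldhAT1 in Ptprk had 15.9% in HFD males and 27.1% in control males. Of the 4 intronic rises, those in Asic2, Pik3r1 and Aldh4a1 are given above, and a Charlie4a element in Grhl2, an epithelial transcription factor gene, had 24.6% in HFD males and 11.1% in control males.

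By family, hAT-Charlie fell in 23 of 30 regions in HFD males (76.7%, exact interval 57.7 to 90.1%), beside 74.0% of all listed regions. Its median was 10.35% in HFD males and 21.7% in control males. Tigger elements fell in 4 of 6, with medians of 10.7% in HFD males and 23.45% in control males, and the elements with no family fell in 3 of 5, with medians of 16.2% in HFD males and 25.7% in control males. The X30_DNA element occurs 3 times and did not move one way. Its copies in Asic2 and on chromosome 1 (20.5% in HFD males and 10.1% in control males) rose, and its copy on chromosome 9 fell. URR1A likewise rose in 2 of 6 regions and fell in 4.

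In female germ cells the diet comparison poses the same question, and 9 DNA transposon regions were listed, all intergenic. Lower levels in HFD females were listed for 6 (66.7%, exact interval 29.9 to 92.5%), beside 71.7% of all regions in that table, and 88.1% of the regions the FDR was adjusted over were listed. In the 6 falls the median level was 1.7% (0.4 to 3.3%) in HFD females and 13.65% (11.4 to 16%) in control females, beside 2.4% in HFD females and 16.1% in control females over all listed falls. The largest was the MER117 element on chromosome 5 (61218123 to 61218561), with 0.4% in HFD females and 14.8% in control females. A MER20 element on chromosome 1 (22872473 to 22872911) had 2.7% in HFD females and 16% in control females. Charlie19a on chromosome 17 (10803270 to 10803834) had 3.3% in HFD females and 14.8% in control females, and MER5A1 on chromosome 2 (44624433 to 44625033) had 1.6% in HFD females and 12.5% in control females. The remaining falls were in X9a_DNA on chromosome 17 (1.1% in HFD females and 11.4% in control females) and the hAT-Blackjack element MER63B on chromosome 2 (1.8% in HFD females and 11.9% in control females).

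The 3 rises in HFD females were in Cheshire, MER20 and X1_DNA elements. Cheshire, a hAT-Charlie element on chromosome 16 (75963617 to 75964166), had 19.7% in HFD females and 3.4% in control females. The MER20 copy on chromosome 2 (29673832 to 29674547, 12 CpGs) had 18.2% in HFD females and 5.6% in control females, with an FDR of 0.00165 in the authors' deposited table, the smallest of the 9. X1_DNA, a Tigger element on chromosome 10, had 12.5% in HFD females and 2.4% in control females. MER20 therefore stood on both sides, with 1 copy lower and 1 copy higher.

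The diet comparisons of the 2 sexes share no sample, and 2 DNA transposon regions overlap between them, which is 4.26% of the 47 male regions and 22.2% of the 9 female regions. Counting overlap with a segment of any annotation, it was 3 of the 47 (6.38%) and 2 of the 9, beside 2.89% of all male diet and 15.8% of all female diet regions. MER117 on chromosome 5, at identical coordinates, was lower on HFD in both: 13.6% in HFD males and 26.9% in control males, and 0.4% in HFD females and 14.8% in control females. X1_DNA on chromosome 10 (start 40541045 in both) was higher on HFD in both, at 21.6% in HFD males and 7.8% in control males, beside the 12.5% in HFD females and 2.4% in control females above. The Aldh4a1 segment also meets a female diet segment that begins at the same base and is annotated as intron, with 13.5% in HFD females and 2.5% in control females. Whether the diet effect differs between the sexes at these regions was not tested, since the tables give no value per sample.

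The sex comparison at GD16 asks how far male and female germ cells differ on the control diet. DNA transposon regions were higher in control males in 167 of 168 cases (99.4%, exact interval 96.7 to 100%), beside 99.7% of all regions in that table, and 99.2% of the regions the FDR was adjusted over were listed. The median level was 19.45% in control males (quartiles 16.4 and 23.6%) and 4.45% in control females (quartiles 2.98 and 5.83%), near the 19.6% in control males and 4.7% in control females over all listed regions. In control females, 101 regions were under 5%, 159 under 10% and 4 at 0, while 16 regions exceeded 30% in control males. The only region lower in control males was an intergenic Charlie4 element on chromosome 9 (42341272 to 42341613, 5 CpGs), with 7.6% in control males and 20.3% in control females.

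The largest difference was at the Charlie16 element of chromosome 6 (106209394 to 106209490, 5 CpGs), with 44.8% in control males and 0% in control females. A MER5A element in Mrpl10, a mitochondrial ribosomal protein gene (chromosome 10, 84977937 to 84978234), had 42.9% in control males and 4.2% in control females. In St6gal1, a sialyltransferase gene, a URR1A element had 37.9% in control males and 0.5% in control females (chromosome 11, 80979257 to 80979710), with an FDR of 1.77e-12 in the authors' deposited table. The X30_DNA element on chromosome 9 had 35.0% in control males and 2.8% in control females. In Cpn1, which encodes the catalytic subunit of carboxypeptidase N, a URR1A element had 40.2% in control males and 8.0% in control females (chromosome 1, 263758198 to 263758930).

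The regions with the most CpGs had smaller differences. An OldhAT1 element of the hAT-Ac family on chromosome 3 (149210907 to 149212453, intergenic) spanned 67 CpGs, the most of all 229, and had 18.4% in control males and 6.5% in control females. Its FDR in the authors' deposited table was 1.07e-31, in a comparison of 4 with 3 samples by a test whose unit is not stated. A URR1A element in the phosphatase gene Ptprg (27 CpGs) had 18.8% in control males and 6.6% in control females, and an intergenic ORSL element on chromosome 10 (23 CpGs) had 17.0% in control males and 3.3% in control females. The median difference was 16.4 points for the 56 regions of 5 to 6 CpGs, 14.75 points for the 46 of 7 to 9 and 13.6 points for the 66 of 10 or more. Over all regions of that table the same medians were 15.4, 14.6 and 13.6 points.

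Introns held 84 of the 168 regions (50.0%), beside 50.8% of SINE regions, 48.2% of all repeat regions and 37.0% of all listed regions. Here too all listed regions held locations other than introns and intergenic stretches, so the 37.0% has a wider base. The median difference was 15.65 points for the intronic regions and 13.6 points for the intergenic ones, while it was 14.3 points for both kinds over all listed regions. The genes in this paragraph were picked after their values were seen. A URR1B element in Piwil1, the gene of a Piwi protein that binds piRNAs and acts against transposons in the germ line, had 31.9% in control males and 2.0% in control females (9 CpGs). The MER58B element in Bora had 36.3% in control males and 4.6% in control females. URR1A elements in Tmco4 (35.3% in control males and 3.7% in control females) and in Prkcq, the protein kinase C theta gene (30.5% in control males and 5.8% in control females), were also above 30% in control males. The genes Sirt7, Kalrn and E2f7 each held 2 separate regions. In Sirt7, a sirtuin gene, the 2 X11_DNA segments lie 16 bp apart, and 1 had 26.1% in control males and 3.3% in control females while the other had 14.9% in control males and 3.3% in control females.

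**Figure D3:**
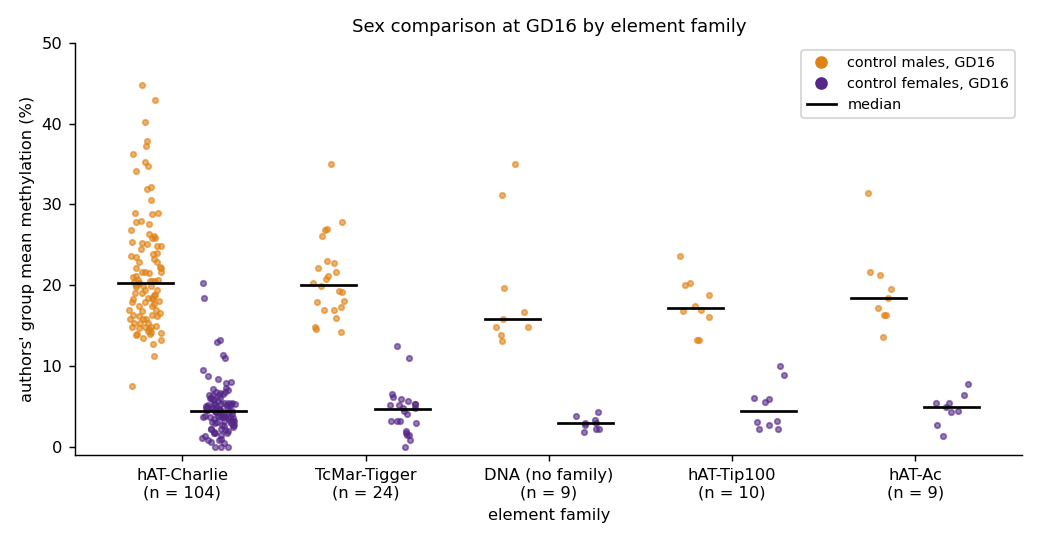
The authors' group mean methylation (percent, vertical axis) at GD16 of the regions of the 5 largest families in the sex comparison, with control males in orange, control females in purple, 1 point per region and a bar at the median. Family medians lie between 15.8 and 20.3% in control males and between 3.0 and 5.0% in control females.

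Medians of the 5 largest families in the sex comparison lay within 15.8 to 20.3% in control males and 3.0 to 5.0% in control females, and families of 3 regions or fewer reached 26% in control males and 8.0% in control females. The median of the 104 hAT-Charlie regions was 20.3% in control males and 4.5% in control females, and that of the 24 Tigger regions was 20.1% in control males and 4.7% in control females. It was 17.2% in control males and 4.45% in control females for 10 hAT-Tip100 regions, 18.4% in control males and 5.0% in control females for 9 hAT-Ac regions, and 15.8% in control males and 3.0% in control females for 9 regions without a family. All 9 hAT-Ac regions were OldhAT1 copies. The spread within hAT-Charlie, 7.6 to 44.8% in control males, covers all of these medians, and no test between families was made.

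URR1A and URR1B, rodent elements of the hAT-Charlie family, were the most frequent names, with 34 and 16 regions (21.8% of the 229 together). In the sex comparison 99.7% of all listed regions were higher in control males, so a uniform direction does not set an element apart. All 27 URR1A regions were higher in control males, with medians of 21.2% in control males and 4.6% in control females. All 15 URR1B regions were too, with medians of 20.4% in control males and 4.8% in control females. The other hAT-Charlie elements had medians of 20% in control males and 4.0% in control females over 62 regions. In the male diet comparison the 7 URR1 regions included 5 falls (71.4%, beside 74.0% of all listed regions) and 2 rises. MER20 followed with 15 regions, of which 12 stood in the sex comparison, all higher in control males, with medians of 20.2% in control males and 4.4% in control females.

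In the GD18 comparison the groups differ in both sex and day, GD18 control males and GD16 control females, so the 2 cannot be told apart. All 5 DNA transposon regions were lower in GD18 control males (exact interval 47.8 to 100%), beside 92.5% of all regions in that table, and 88.3% of the regions the FDR was adjusted over were listed. Levels were 1.4 to 7.7% in GD18 control males and 13.3 to 20.3% in GD16 control females. The Charlie4 element on chromosome 9 had 1.4% in GD18 control males and 20.3% in GD16 control females. A Charlie1a element on chromosome 5 (24893895 to 24893991) had 3.1% in GD18 control males and 18.5% in GD16 control females. The MER5A1 element on chromosome 20 (50039658 to 50040512, 14 CpGs) had 2.3% in GD18 control males and 17.6% in GD16 control females. A URR1A element in an intron of Agap1, a regulator of Arf GTPases, had 7.7% in GD18 control males and 19.0% in GD16 control females. Kanga11a, a TcMar-Tc2 element on chromosome 3, had 2.9% in GD18 control males and 13.3% in GD16 control females. None of these 5 overlapped a region of the male diet table, with which the GD18 table shares no sample, beside 16.3% of all 1618 regions listed at GD18.

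Several regions stand at the same coordinates in tables that share a control group, and their values are given side by side without reading the recurrence as a result. The GD18 and the sex tables both use the GD16 control females. At Charlie1a the 3 group means were 3.1% in GD18 control males, 34.7% in GD16 control males and 18.5% in GD16 control females. At Charlie4 they were 1.4% in GD18 control males, 7.6% in GD16 control males and 20.3% in GD16 control females. The male diet and the sex tables both use the GD16 control males, and 8 DNA transposon regions have identical coordinates there. At X30_DNA on chromosome 9, HFD males had 12.6%, control males 35.0% and control females 2.8%. At Mapt, HFD males had 1.1%, control males 13.2% and control females 1.8%, and at the RMER30 element on chromosome 7 HFD males had 6.4%, control males 21.6% and control females 6.8%. The Charlie7 element on chromosome 9 (83968275 to 83968563) was higher in HFD males, with 29.3% in HFD males, 17.0% in control males and 3.1% in control females. At the overlapping Charlie16 segments HFD males had 80.0%, control males 44.3 or 44.8% by table, and control females 0%.

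**Figure D4:**
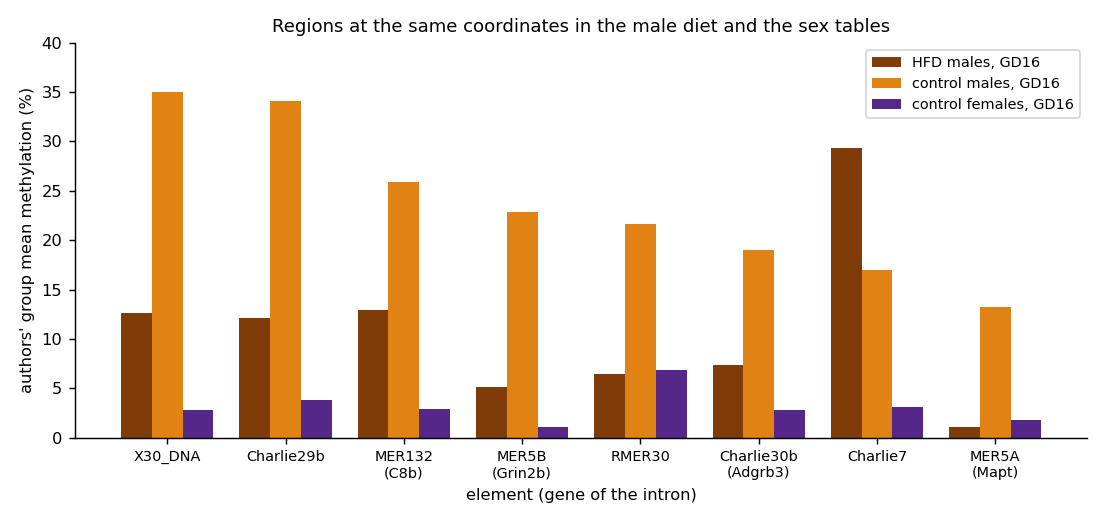
The authors' group mean methylation (percent, vertical axis) at GD16 of the 8 DNA transposon regions with identical coordinates in the male diet and the sex tables, as bars for HFD males, control males and control females, by element (horizontal axis, gene of the intron in brackets). The control male bars are taken from the male diet table, and at Charlie7 HFD males (29.3%) stand above control males (17.0%).

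The segments are not fully the same objects in each table. Of those 8 regions, 5 were listed with the same number of CpGs and 3 with another, and the control male mean was equal to the decimal in 6 and differed by up to 1.3 points in 2. Segments that only overlap can differ more. The ORSL segment on chromosome 10 had 17.0% in control males in the sex comparison, and the overlapping male diet segment had 36.8%. At MER2 in Stc2 the control male means were 26.9% in the sex comparison and 28.3% in the male diet comparison. Overlapping segments can also carry another annotation. The OldhAT1 segment in Ptprk of the male diet table (17807437 to 17807927), for instance, lies within a segment of the sex table (17807410 to 17807982) annotated as intron. That segment had 25.4% in control males and 4.1% in control females. The Arthur2 segment (1088920 to 1089029) meets an intergenic segment of the sex table (1088394 to 1088924) without a repeat name, but only at its edge. There the levels were 27.5% in control males and 5.4% in control females.

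DNA transposon regions were set beside SINE, LINE and LTR regions, with no test between classes. In the male diet comparison 23.4% of DNA transposon regions rose in HFD males, beside 31.6% of 320 SINE, 23.1% of 52 LINE and 19.1% of 47 LTR regions. The median absolute difference was 13.3 points for DNA transposons, 13.45 for SINE, 13.2 for LINE and 12.7 for LTR regions. In the sex comparison it was 14.2 points for DNA transposons, 14.7 for SINE, 14.4 for LINE and 14.1 for LTR regions, and in the female diet comparison it was 11.5, 11.9, 13.65 and 11.6 points in the same order. In the GD18 comparison, with 5 DNA transposon and 6 LINE regions, the medians were 15.3 points for DNA transposons, 12.0 for SINE, 15.7 for LINE and 13.4 for LTR regions. A difference of at least 30 points occurred in 8 DNA transposon regions of the sex comparison (4.76%), beside 2.08% of all listed regions, 1.87% of SINE, 1.08% of LINE and 2.16% of LTR regions. At 20 points the share was 19.6% for DNA transposons, beside 17.4% for all listed, 21.6% for SINE, 18.4% for LINE and 21.1% for LTR regions. In the male diet comparison 3 DNA transposon regions (6.38%) reached 30 points. The share was 6.99% for all listed, 3.75% for SINE, 1.92% for LINE and 6.38% for LTR regions.

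**Figure D5:**
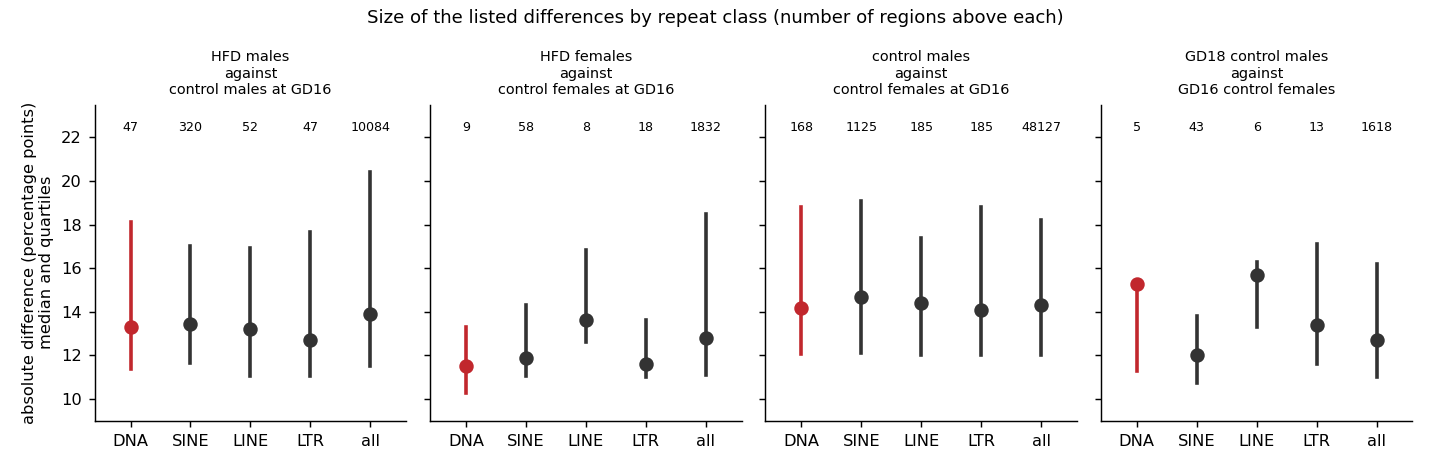
Absolute methylation difference of the listed regions (percentage points, vertical axis, starting at 9) for DNA transposon regions in red and for SINE, LINE, LTR and all listed regions in grey, with the median as a point, the quartiles as a line and the number of regions above. In the sex comparison the medians lie between 14.1 and 14.7 points, and in the GD18 comparison the DNA transposon value rests on 5 regions.

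Like the other repeats, DNA transposon regions were long and poor in CpGs. In the male diet comparison their median length was 514 bp with 1.86 CpGs per 100 bp, beside 265 bp and 2.91 over all listed regions. In the sex comparison it was 558 bp with 1.56 CpGs per 100 bp, beside 442 bp and 2.21 over all listed regions. SINE, LINE and LTR regions had 1.43, 1.60 and 1.33 CpGs per 100 bp there. Over the 4 tables, 119 members were intergenic and 110 intronic, and none lay on an unplaced scaffold. The X chromosome held 1, an RMER30 element with 14.8% in control males and 4.1% in control females, and chromosome 1 held the most, 21.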

How the data were processed

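Germ cell DNA of 18 samples in 5 groups was measured by capture bisulfite sequencing. Reads were handled with Bismark 0.19.0 and Bowtie2, per the submitters' processing notes, and the design text says that loci were cut into segments of at least 50 bp before DMRs were searched. The genome build and the source of the repeat annotation are not given in the sources used here; coordinates stand as in the files. Per the file headers, each region has the authors' mean methylation of a case and a control group as a fraction, here printed in percent. Whether that mean was taken over samples or over pooled reads could not be checked without values per sample. The signed difference is a score deposited by the authors. Per the file headers, the authors' p-value comes from a two-sample t-test, and an FDR stands beside it. Values per sample, read counts and coverage were not available for use, and 0 sample columns were left unmapped. Depth is therefore unknown, and the permutation tests planned for values per sample were not run.

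Members were rows with 3 annotation fields of which the second is DNA. The members and lists were chosen with earlier results of these data known. Named regions were, per comparison, the 5 largest rises, the 5 largest falls and the 3 with most CpGs. One region that this rule names is not reported here. Names with at least 20 regions and families with at least 5 were described by count and median; URR1B and MER20, under that number, were added after the counts were seen. The number of regions behind each FDR adjustment was derived from deposited p and FDR. Gene symbols came from RefSeq (GRCr8), for names only; 104 of 110 intronic members had one. Overlap meant at least 1 bp. Shares have exact Clopper-Pearson 95% intervals. The software was pandas 2.3.3 with scipy 1.17.1, numpy 2.4.6 and matplotlib 3.10.9 under Python 3.11.15, and the scripts were tested on simulated data. Alternatives were a minimum of 10 CpGs, a minimum of 20 points, an FDR of at most 0.01, regions within 1 kb counted once, autosomes only, inclusion of the class "DNA?", and stricter overlap.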

Additional observations from a re-analysis of the deposited data

How the results depend on the processing

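The 4 comparisons were recomputed under 6 alternatives each and the 2 overlaps under 2 each, which gave 70 values. Of these, 55 were labelled the same, 13 moved and 2 reversed. The label is coarse. The share higher in HFD females was labelled the same at 33.3% as deposited and 50% with an FDR of at most 0.01. Autosomes only and counting regions within 1 kb once could change little. Each took the sex comparison from 168 to 167 regions and left the other counts of regions unchanged. With at least 10 CpGs, 17 DNA transposon regions were left for HFD males against control males, 1 for HFD females against control females, 66 for control males against control females and 1 for GD18 control males against GD16 control females. The share higher was then 100% both in HFD females, from that single region, and in control males against control females. With at least 20 points, 10 regions were left for HFD males (median difference -21.75 points) and 33 for the sex comparison (100% higher, median 23.6 points), and none in the other comparisons, which gave no value. An FDR of at most 0.01 left 4 regions for HFD females. The median difference in HFD females against control females, -10.3 points over 9 regions, changed sign to 12.6 points with at least 10 CpGs and 0.55 points with the stricter FDR, because 1 and 4 regions remained. With identical coordinates required, the male and female diet tables shared 1 region. No paired analysis was possible because the tables hold group means only, and leaving out single samples was not possible for the same reason. The authors' FDR covers regions already selected, and the unit of their test is not stated, so the spread between animals behind each difference is unknown. How many DNA transposon segments were covered without being listed is not known from the tables used.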

Other observations

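The annotation marks 10 further regions as DNA transposons of uncertain class, which were left out of all counts above. Of these, 5 are listings of MER131 elements. The MER131 segment on chromosome 2 at 250204217 to 250204716 was listed in 2 tables that share the control females: it had 14% in HFD females and 2.4% in control females, and 24.4% in control males and 3.0% in control females. A MER131 element in the transcription factor gene Nfia had 18.7% in control males and 4.7% in control females, and the longest, on chromosome 5 (136340628 to 136341963, 26 CpGs), had 19.5% in control males and 4.2% in control females. A UCON14 element in Tshz3 had 22.2% in control males and 7.8% in control females. Of the 2 UCON58 elements, 1 was listed for diet, with 34.7% in HFD males and 17.6% in control males. The MER123 element on chromosome 18 had 9.2% in GD18 control males and 24.3% in GD16 control females. All 7 uncertain regions of the sex comparison were higher in control males, as were 99.7% of all listed regions.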
